A study of Mus musculus with 9 samples.

Results

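Clock output transcription factors and regulators were described in mouse liver by 8 genes, Dbp, Tef, Hlf, Nfil3, Ciart, Usp2, Bhlhe40 and Bhlhe41, of 19505 genes named on the array. They were chosen by name and with earlier results of these data known. Each gene had 1 probe set, a group of short probes whose brightness gives the level of that gene's RNA. Non-tumor liver of male C57BL/6 mice at 40 weeks of age was measured on Clariom S arrays, with 3 arrays in each of the groups HNK, MUP and WT. All mice had been fed a high-fat diet from 6 weeks of age. HNK mice carried the MUP-uPA transgene and were given honokiol, a compound of magnolia trees, by injection at 10 mg/kg, 3 injections a week, between the ages of 32 and 40 weeks. MUP mice carried the same transgene and received the control treatment, and WT mice were wild-type littermates labelled with control treatment, which the labels do not describe further. The transgenic line had been backcrossed to C57BL/6J. MUP-uPA mice express urokinase-type plasminogen activator from the promoter of a major urinary protein gene, which injures hepatocytes in early life, and they develop steatohepatitis and liver tumors on this diet. The sources used here give a light-dark cycle for the housing and a last injection some days before sampling, but no hour at which the livers were taken.

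The circadian clock of a cell is a loop of transcription in which CLOCK, or its relative NPAS2, and BMAL1 bind E-box sequences and drive the genes of their own inhibitors, the period and cryptochrome proteins and the REV-ERB receptors. Output genes carry this rhythm to the metabolism of the tissue. Dbp, Tef and Hlf encode the PAR bZIP transcription factors, activators that bind D-box sequences, and Nfil3 encodes a bZIP repressor of the same sequences that is high when they are low. Ciart encodes a repressor of the CLOCK and BMAL1 pair, Bhlhe40 and Bhlhe41 encode the repressors DEC1 and DEC2, which compete for E-boxes, and Usp2 encodes a ubiquitin-specific protease whose RNA cycles in many tissues. In liver, RNA of Dbp is among those with the largest daily swings.

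The deposited values are normalized intensities, and their log2 is given throughout, so that a difference of 1 is a factor of 2 in intensity. The median log2 intensity of the 22206 tested probe sets lay between 5.52 and 5.62 on the 9 arrays. The median of the 5222 negative control rows, which match no mouse gene, lay between 4.91 and 5.10, and their 95th percentile between 8.24 and 8.61. Dbp and Bhlhe40 were above that 95th percentile on 9 of 9 arrays, Hlf on 7, Ciart on 2, Usp2 on 1, and Tef, Nfil3 and Bhlhe41 on none. Tef did not exceed the control median on 7 of 9 arrays. The liver label held, since 10 hepatocyte genes had median log2 intensities from 17.79 to 18.35 on the 9 arrays. HNK 3 and MUP 2 stood apart, with medians of 12.15 and 12.36 over 18 skeletal muscle genes, against 4.12 to 4.62 on the other 7 arrays. The summed level of 7 Kupffer cell and macrophage genes was 10.99 to 13.46 on the log2 scale in HNK, 11.27 to 13.55 in MUP and 14.10 to 15.62 in WT. Their means were lower for 7 of 7 in MUP than in WT, of which 1 passed the test, and for 7 of 7 in HNK than in WT, of which 2 passed. In the order HNK, MUP and WT, the summed level of 6 sinusoidal endothelial genes was 11.01 to 11.59, 11.46 to 12.44 and 12.48 to 13.11. Means were lower than in WT for 5 of these 6 in MUP, with 0 passing the test, and for 6 in HNK, with 1 passing. For 7 stellate cell and fibroblast genes the sum was 14.79 to 16.07, 15.11 to 15.73 and 16.17 to 16.48 in that order. Of these 7, means were lower than in WT for 4 in MUP and 5 in HNK, and 0 passed the test. Their medians per array overlapped between groups, with 5.97 to 8.01 in HNK, 6.04 to 7.79 in MUP and 6.19 to 7.46 in WT. The summed level of 4 biliary epithelial genes was 8.02 to 8.48 in HNK, 7.82 to 8.47 in MUP and 7.29 to 7.91 in WT, and 1 of them, Epcam, was called higher in HNK against WT. MUP 1 stood apart in the median of 5 neutrophil genes, with 7.29, against 4.12 to 5.22 on the other arrays. Without MUP 1, 4 members were called in MUP against WT, 0 in HNK against MUP and 2 in HNK against WT, the same counts as with it. The part of these cell types in the results was not tested. In liver homogenates, fewer cells of a type and less RNA per cell cannot be told apart.

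Dbp, Ciart, Usp2 and Tef rose in MUP against WT, none of the 8 genes fell, and Hlf, Nfil3, Bhlhe40 and Bhlhe41 did not pass the test. In all, 3.58 percent of probe sets were called in this comparison at an adjusted p under 0.05, 1.44 percent higher and 2.13 percent lower. At an unadjusted p under 0.05, 5 of the 8 genes were higher and 0 lower, against 17.3 percent of all probe sets, 7.82 percent higher and 9.52 percent lower. The 4 genes that rose were also those whose groups did not overlap, which held with MUP higher for 11 percent of all probe sets. For Tef, MUP 2 and the 3 WT arrays did not exceed the control median, so their order is not measured. Over the 8 genes the median log2 fold change was 1.25, and over everything tested it was 0.00. The count of 4 became 2 without WT 1 and 2 without WT 3, when the calls of Tef and Usp2 were lost.

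Dbp rose and was well above the negative controls on each array. Its log2 intensity was 15.11, 15.40 and 15.10 in MUP 1 to MUP 3, against 9.14, 13.07 and 10.27 in WT 1 to WT 3. The MUP arrays lay close together and above each WT array, while the WT arrays differed among themselves by up to 3.93. The log2 fold change was 4.37 (SE 0.70, 95% interval 2.85 to 5.90, adjusted p = 0.0062 from limma, n = 3 per group), or 20.7-fold. An exact two-sided permutation test of the 3 against 3 arrays gave p = 0.1, the smallest value that this design allows, as it did for each pair of groups below that did not overlap.

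Ciart rose as well. It had 8.53, 8.73 and 8.91 in MUP 1 to MUP 3, against 3.21, 5.64 and 4.92 in WT 1 to WT 3. WT 1 and WT 3 did not exceed the negative control median, so that only a lower bound of the fold can be given. With these arrays set to the controls' level, Ciart was at least 11.6-fold higher in MUP (fitted log2 fold change 4.13 with an SE of 0.57, limma adjusted p = 0.0034). The lowest MUP array exceeded the highest WT array by 2.88 on the log2 scale, the widest gap of the 8 genes.

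Usp2 varied in both groups. Its log2 intensity was 7.53, 9.91 and 8.41 in MUP 1 to MUP 3, against 4.51, 6.33 and 5.12 in WT 1 to WT 3, with WT 1 no higher than the control median. The groups were apart by 1.20 although the MUP arrays alone spanned 2.38. The log2 fold change was 3.29 (SE 0.60, 95% interval 1.99 to 4.60, adjusted p = 0.012 from limma), or 9.81-fold. The highest of the 9 values was that of MUP 2, one of the arrays with muscle signal. Without HNK 3 and MUP 2, Usp2 averaged 7.97 in MUP, against 5.32 in WT, a difference of 2.65.

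Tef rose by the test but was dim. It had 5.27, 4.70 and 5.19 in MUP 1 to MUP 3, against 3.24, 4.12 and 3.32 in WT 1 to WT 3. The 3 WT arrays and MUP 2 did not exceed the median of the negative controls. The log2 fold change was 1.49, with an SE of 0.26 and a limma adjusted p of 0.010, but against the controls' level the increase was at least 1.05-fold, and with all such values set to that level the log2 fold change was 0.18 (adjusted p = 0.15).

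Hlf, the third PAR bZIP gene, did not differ in the way of Dbp. Its values were 8.69, 9.06 and 8.13 in MUP 1 to MUP 3, against 8.45, 9.20 and 8.93 in WT 1 to WT 3, and the groups overlapped throughout. The log2 fold change was -0.23 (95% interval -0.87 to 0.41, adjusted p = 0.75 from limma), an interval from 0.549-fold to 1.33-fold. Nfil3, the repressor, had 8.30, 7.48 and 8.28 in MUP 1 to MUP 3, against 8.12, 7.14 and 7.27 in WT 1 to WT 3. WT 1 lay among the MUP arrays, and the log2 fold change was 0.51 (95% interval -0.19 to 1.20, adjusted p = 0.46).

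The DEC genes overlapped between the groups as well. Bhlhe40 was bright on every array, with 14.35, 13.70 and 13.26 in MUP 1 to MUP 3, against 12.69, 13.93 and 12.97 in WT 1 to WT 3, and its log2 fold change was 0.57 (95% interval -0.21 to 1.35, adjusted p = 0.46 from limma). Bhlhe41 had 5.02, 7.08 and 5.19 in MUP 1 to MUP 3, against 4.23, 4.97 and 5.04 in WT 1 to WT 3. MUP 1, WT 1 and WT 2 did not exceed the control median. Its log2 fold change of 1.01 (95% interval 0.01 to 2.02, adjusted p = 0.29) rested on MUP 2, and was 0.36 without HNK 3 and MUP 2.

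**Figure D1:**
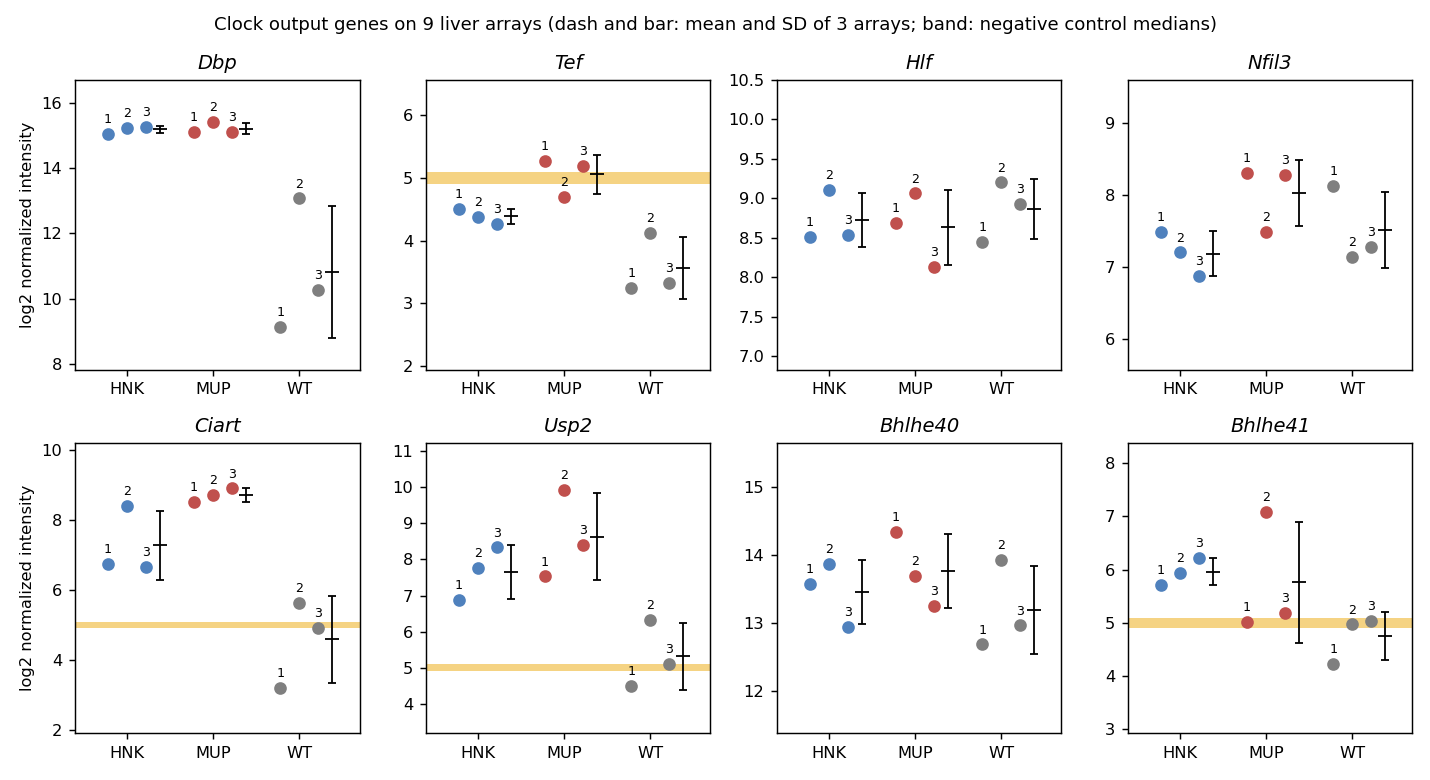
Log2 normalized intensity of the 8 genes on the 9 arrays, with the array number above each point, groups from left to right as HNK, MUP and WT, the mean and SD of 3 arrays as dash and bar, and the negative control medians (4.91 to 5.10) as a band. Dbp lies between 15.05 and 15.40 on the 6 transgenic arrays and between 9.14 and 13.07 on the WT arrays, while Hlf and Bhlhe40 overlap between groups.

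The WT arrays were the widest group for Dbp, and WT 2 was the WT array nearest to HNK and MUP for Dbp, Ciart and Usp2. WT 2 was the highest WT array for 6 of the 8 genes, which were Dbp, Tef, Hlf, Ciart, Usp2 and Bhlhe40, and the lowest for Nfil3. WT 1 was the lowest for 7 of 8 and the highest for Nfil3. Values that do not exceed the control median have no measured order, which applies to 3 WT arrays for Tef and to 2 each for Ciart and Bhlhe41. For Dbp, WT 2 was 15.2-fold above WT 1 and 6.95-fold above WT 3. No WT range in folds is given for Ciart and Usp2, whose lowest WT arrays did not exceed the control median. The median range over all probe sets was 1.35-fold in WT. Dbp varied 1.15-fold among the HNK arrays and 1.23-fold among the MUP arrays, less than the medians over all probe sets of 1.43-fold and 1.45-fold. These ranges describe 3 arrays each and were not tested.

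No member passed the test in HNK against MUP, in which limma called 1 of 22206 probe sets, or 0.0045 percent, and 968 had an unadjusted p under 0.05. The number of probe sets called was 0 when HNK 1 was left out and 2 when WT 2 was. Tef, Nfil3 and Ciart had lower values on each HNK array than on each MUP array, and no member had higher ones. Of all probe sets, 4.48 percent had HNK lower in this way and 4.11 percent had HNK higher. For Tef, the 3 HNK arrays and MUP 2 did not exceed the control median, so their order is not measured. Tef, Nfil3 and Ciart were also the 3 members with an unadjusted p under 0.05, which 4.36 percent of all probe sets had, 2.27 percent lower and 2.09 percent higher. The methods' t-test gave 1 member, Tef, such a p, against 4.03 percent of all probe sets. After adjustment it called 0 members and 1 probe set. Over the 8 genes the median log2 fold change was -0.49, and over everything tested it was -0.01. The MUP arrays enter this comparison and that of MUP with WT with opposite signs.

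Ciart had 6.75, 8.42 and 6.67 in HNK 1 to HNK 3, against 8.53, 8.73 and 8.91 in MUP 1 to MUP 3. HNK 2 lay just below the MUP arrays, by 0.103, and HNK 1 and HNK 3 lay lower, between MUP and WT. The log2 fold change was -1.44 (95% interval -2.69 to -0.19, unadjusted p = 0.027, adjusted p = 0.998 from limma). Nfil3 had 7.48, 7.20 and 6.87 in HNK 1 to HNK 3, against 8.30, 7.48 and 8.28 in MUP 1 to MUP 3. HNK 1 and MUP 2 differed by 0.003, and the log2 fold change was -0.84 (95% interval -1.53 to -0.14, adjusted p = 0.998). Tef had 4.51, 4.38 and 4.27 in HNK 1 to HNK 3, against 5.27, 4.70 and 5.19 in MUP 1 to MUP 3, with a log2 fold change of -0.67 (95% interval -1.24 to -0.09, adjusted p = 0.998). None of the 3 HNK arrays nor MUP 2 exceeded the control median for Tef, and with such values set to that median its difference was -0.11, so that -0.67 describes values mostly below background.

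The level of Dbp in HNK was 15.05, 15.23 and 15.25 in HNK 1 to HNK 3, against 15.11, 15.40 and 15.10 in MUP 1 to MUP 3. These 6 values lay within 0.35 of each other, and the log2 fold change was -0.02 (95% interval -1.55 to 1.50, adjusted p = 0.998 from limma). The model takes 1 spread for all 3 groups, and the SD of Dbp was 0.11 in HNK, 0.17 in MUP and 2.02 in WT. Usp2 had 6.87, 7.76 and 8.33 in HNK 1 to HNK 3, overlapping with MUP, and a log2 fold change of -0.96 (95% interval -2.27 to 0.34). Hlf, Bhlhe40 and Bhlhe41 also overlapped, with log2 fold changes of 0.09, -0.31 and 0.20.

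Against WT, Dbp and Ciart were higher in HNK, and no member fell. The test was not passed by the other 6. Of all probe sets, 2.29 percent were called, 0.964 percent higher and 1.33 percent lower. At an unadjusted p under 0.05, 5 members were higher and 0 lower, against 14.1 percent of all probe sets, 6.07 percent higher and 8.02 percent lower. The members' median log2 fold change was 1.02, and that of everything tested -0.01. Dbp averaged 15.18 ± 0.11 in HNK and 10.83 ± 2.02 in WT (SD, n = 3 each), which is 4.35 on the log2 scale with an SE of 0.70 (limma adjusted p = 0.010). Without WT 3 the adjusted p of Dbp was 0.059. Ciart averaged 7.28 ± 0.99 in HNK and 4.59 ± 1.25 in WT, and was at least 4.27-fold higher (adjusted p = 0.033). That call was lost without WT 1, WT 3, MUP 3 or any HNK array (adjusted p from 0.051 to 0.10). Usp2 averaged 7.65 ± 0.74 in HNK and 5.32 ± 0.93 in WT (log2 fold change 2.33, SE 0.60, adjusted p = 0.071), with groups that did not overlap, and had an adjusted p of 0.030 without MUP 2. In 5 of 8 genes the HNK arrays lay above each WT array, against 9.37 percent of all probe sets. Beside the 3 named these were Tef (log2 fold change 0.83, adjusted p = 0.15, none of the 6 values above the control median) and Bhlhe41 (1.21, adjusted p = 0.24, and 0.040 without MUP 2). The order of the Tef values is therefore not measured. Nfil3 averaged 7.18 ± 0.31 in HNK and 7.51 ± 0.53 in WT, and its log2 fold change of -0.33 had a 95% interval from -1.02 to 0.37. The comparison shares its WT arrays with that of MUP.

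**Figure D2:**
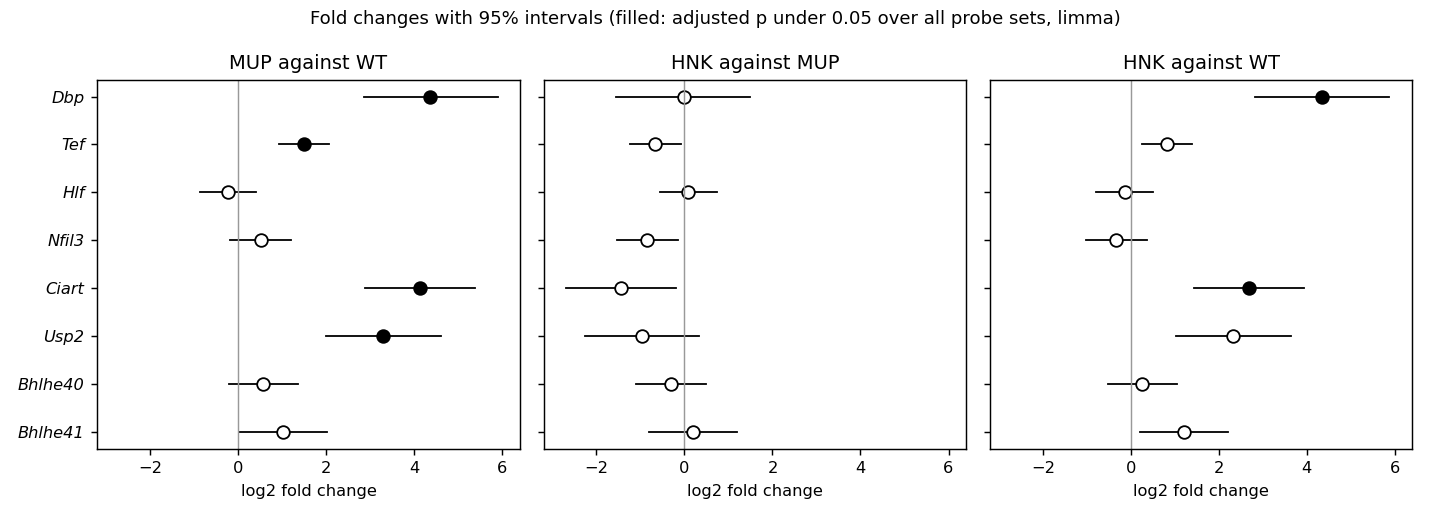
Log2 fold change (point) and 95% interval (line) of the 8 genes in the 3 comparisons, from a single limma model of 9 arrays, with filled points for an adjusted p under 0.05. Filled points are Dbp, Tef, Ciart and Usp2 in MUP against WT and Dbp and Ciart in HNK against WT, and there are none in HNK against MUP.

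The genes of the clock loop itself were read from lists by role, chosen like the members with earlier results of these data known. Of 6 measured genes of the period and REV-ERB arm, Per3, Per2 and Nr1d1 rose in MUP against WT and none fell, with a median log2 fold change of 1.24. The other 3 were not called. Of all probe sets, 1.44 percent were called higher and 2.13 percent lower in this comparison. Per3, which encodes a period protein, had 8.79, 8.83 and 8.82 in MUP 1 to MUP 3, against 5.38, 6.66 and 6.08 in WT 1 to WT 3 (log2 fold change 2.77, SE 0.29, adjusted p = 0.0008 from limma). The 3 MUP arrays lay within 0.04 of each other and above each WT array. Per2, a period gene as well, and Nr1d1, which encodes REV-ERB-alpha, had log2 fold changes of 1.58 and 1.15. In HNK against WT, Per3 (2.36) and Nr1d1 (1.50) rose and none fell, with a median of 0.97 over the 6 genes. There 0.964 percent of all probe sets were called higher and 1.33 percent lower. The activator arm was read as Arntl, Clock, Npas2, the receptor gene Rora and Cry1, although the last encodes a repressor of the loop. Of these 5, Arntl, which encodes BMAL1, and Npas2 fell in MUP against WT and in HNK against WT, and none rose. The medians over the 5 genes were -0.15 in MUP and -0.33 in HNK, each against WT. Arntl had 6.07, 6.09 and 5.86 in MUP 1 to MUP 3, against 9.30, 7.79 and 8.88 in WT 1 to WT 3 (log2 fold change -2.65, SE 0.42, adjusted p = 0.0059). In HNK 1 to HNK 3 it had 5.80, 4.71 and 6.21, with HNK 2 no higher than the control median. Npas2 had 4.96 on HNK 2 and 4.93 on HNK 3, below the control medians of 5.08 and 5.02. The size of its fall in HNK against WT is therefore not measured. No gene of either arm passed the test in HNK against MUP. The fall of 2 activator genes in MUP became that of 1 without MUP 3, WT 1 or WT 3, and in HNK against WT that of 1 without HNK 2, HNK 3, WT 1, WT 3 or both HNK 3 and MUP 2. In HNK against WT the 2 genes of the period arm that rose became 1 without WT 1 or WT 3. In MUP against WT the 3 that rose became 2 without MUP 1, MUP 2, WT 1, WT 3 or both HNK 3 and MUP 2.

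The order of the WT arrays seen in Dbp was shared by Per1, Per2 and Per3, 3 of the 6 period and REV-ERB genes. WT 2 was the highest WT array for Cry2 and Nr1d1 too, but WT 3 was the lowest for both, and Nr1d2 was highest in WT 3. In the activator arm, Arntl and Npas2 were highest in WT 1 and lowest in WT 2. Clock and Cry1 were highest in WT 2, Clock and Rora were lowest in WT 1, and Rora was highest in WT 3. The hour of sampling was not tested, since the sources used here do not give it.

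**Figure D3:**
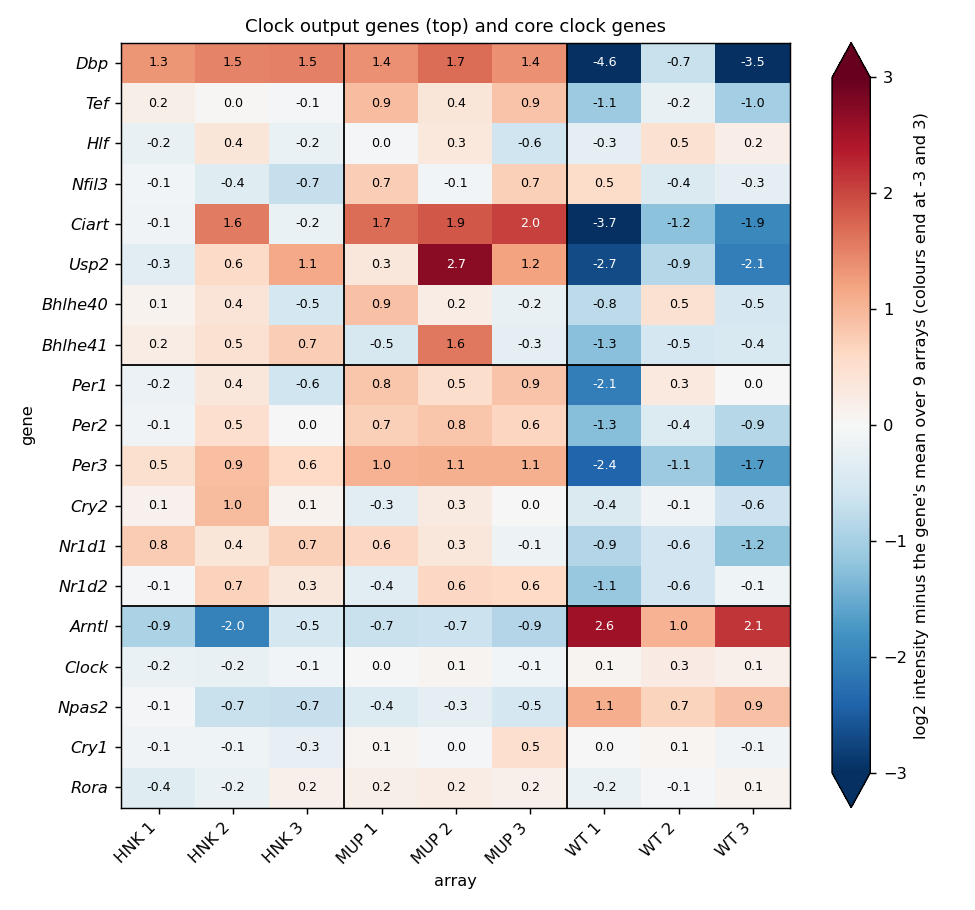
Log2 intensity minus the gene's mean over the 9 arrays, for the 8 output genes (top block), 6 genes of the period and REV-ERB arm (middle) and 5 of the activator arm (bottom), with arrays in columns and groups divided by lines. Dbp, Ciart, Usp2 and Per3 are low on the WT arrays, and Arntl is high there.

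In MUP against WT, 4 of 14 measured genes listed as targets of the PAR bZIP factors in liver rose and 1 fell, while 9 were not called, and the median log2 fold change was 0.65. Of all probe sets, 1.44 percent were called higher and 2.13 percent lower. Upp2, which encodes a uridine phosphorylase, had a log2 fold change of 4.70, Cyp7a1, the rate-limiting enzyme of bile acid synthesis, 2.93, and the cytochrome P450 genes Cyp2a4 and Cyp2a5 2.84 and 2.38. The sequences of Cyp2a4 and Cyp2a5 are nearly identical, and their probe sets may read each other's RNA. Acot2, a mitochondrial acyl-CoA thioesterase gene, fell, with -1.98. In HNK against WT the same 4 genes rose, and Acot1, Acot2 and Acot4 fell, with log2 fold changes of -1.49, -1.81 and -1.23, and the median over the 14 genes was 0.50. There 0.964 percent of all probe sets were called higher and 1.33 percent lower. Acot1 and Acot2 are close copies as well, and their signals may be shared. None passed the test in HNK against MUP. The 7 genes called in HNK against WT became 4 without HNK 2, WT 1 or WT 2. WT 2 was the highest WT array for 10 of these 14 genes.

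The genes whose pattern over the 9 arrays was most like that of each risen member were found among 5184 brighter genes by the root mean square difference of the log2 values, after each gene was centred on its own mean. For Dbp the closest was Upp2, with a difference of 0.59, where Dbp itself departed from its own mean by 2.27. Upp2 had 9.34, 12.88 and 11.70 in WT 1 to WT 3, and so the same order as Dbp. Cyp4a12b, a cytochrome P450 gene, and Cdh1, which encodes E-cadherin, followed, with 0.96 and 1.07. For Ciart the closest were Upp2 (0.74), Per3 (0.75) and Nnmt, which encodes nicotinamide N-methyltransferase (0.76). For Usp2 they were Onecut1, a hepatocyte transcription factor gene (0.62), Igfbp2, which encodes an IGF-binding protein (0.65), and the glutamate transporter gene Slc1a2 (0.69). Tef did not exceed the control median on 7 of 9 arrays, so its pattern was mostly unmeasured. The closest to it were Ralgapa2 (0.24), the nucleoside transporter gene Slc29a1 (0.27) and Dgat2, an enzyme of triglyceride synthesis (0.27), where Tef departed from its own mean by 0.67. These genes share the arrays and the split between groups, and no test was made.

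Promoter sequence was read for the members, since output genes are known to be driven through E-boxes and D-boxes. RefSeq windows of the 250 bases before a transcript start (GRCm38.p6) were matched for 7 of 8 members, with a pair of starts for Tef and none matched for Bhlhe40. The windows were searched on both strands for the E-box CACGTG, the related letters CACGTT, the D-box letters TTATGCAA and TTATGTAA, and TAGGTCA, the core of the element bound by REV-ERB and ROR receptors. Of 32851 such windows in the RefSeq table, these were found in 6.02, 3.85, 0.694, 0.819 and 2.23 percent in that order. Ciart held CACGTG 3 times, starting 116, 58 and 44 bases before the start, where 20 of 32851 windows, or 0.0609 percent, held it 3 times or more. Both Tef windows and that of Bhlhe41 held it once. TAGGTCA was found in Nfil3, on the reverse strand, 12 bases before the start. The windows of Dbp, Hlf and Usp2 held none of these letters, and no matches overlapped. A match is a description of the letters and not a bound site.

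The windows with matches are shown 5′ to 3′ on the strand of the gene, with the matched letters in capitals. They hold the E-boxes of Ciart and of the dim Tef, which rose in MUP. They also hold the E-box of Bhlhe41, which did not pass the test, and the single TAGGTCA match, in Nfil3. They lie at chr3:95882229-95882478 (Ciart, reverse strand), chr15:81802423-81802672 and chr15:81811164-81811413 (Tef, forward), chr6:145865421-145865670 (Bhlhe41, reverse) and chr13:52981040-52981289 (Nfil3, reverse).
Ciart: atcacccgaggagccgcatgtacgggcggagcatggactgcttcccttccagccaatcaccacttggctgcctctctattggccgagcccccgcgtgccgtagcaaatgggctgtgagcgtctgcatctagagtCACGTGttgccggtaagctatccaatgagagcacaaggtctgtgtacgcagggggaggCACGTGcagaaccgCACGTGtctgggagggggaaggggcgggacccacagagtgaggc
Tef, window 1: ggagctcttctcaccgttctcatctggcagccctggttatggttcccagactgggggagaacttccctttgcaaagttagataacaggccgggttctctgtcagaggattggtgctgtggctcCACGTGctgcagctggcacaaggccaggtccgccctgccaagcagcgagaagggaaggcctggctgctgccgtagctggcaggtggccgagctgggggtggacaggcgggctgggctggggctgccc
Tef, window 2: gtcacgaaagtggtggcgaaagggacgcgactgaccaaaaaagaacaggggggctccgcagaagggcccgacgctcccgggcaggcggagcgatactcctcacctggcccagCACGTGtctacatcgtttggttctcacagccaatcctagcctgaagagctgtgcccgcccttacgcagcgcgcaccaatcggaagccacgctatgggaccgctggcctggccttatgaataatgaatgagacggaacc
Bhlhe41: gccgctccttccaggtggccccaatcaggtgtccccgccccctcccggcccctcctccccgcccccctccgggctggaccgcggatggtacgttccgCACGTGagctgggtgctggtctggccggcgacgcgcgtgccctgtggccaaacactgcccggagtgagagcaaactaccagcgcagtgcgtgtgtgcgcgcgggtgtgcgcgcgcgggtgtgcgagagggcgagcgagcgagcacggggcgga
Nfil3: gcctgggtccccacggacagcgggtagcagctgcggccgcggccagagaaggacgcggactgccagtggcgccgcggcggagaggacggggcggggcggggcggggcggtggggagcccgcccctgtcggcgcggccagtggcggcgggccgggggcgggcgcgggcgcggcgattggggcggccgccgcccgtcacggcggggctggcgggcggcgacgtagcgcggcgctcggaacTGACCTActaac

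**Figure D4:**
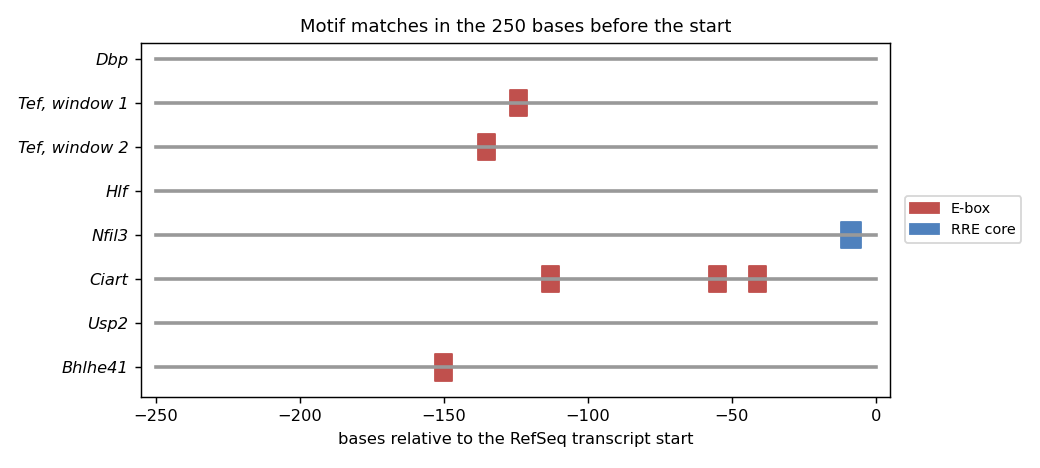
Places of the motif matches in the 250 bases before the RefSeq transcript start of 7 members, in bases relative to the start, with 2 windows for Tef. Ciart has 3 E-boxes at 116, 58 and 44 bases before the start, Tef has 1 in each window and Bhlhe41 has 1. Nfil3 has a match to the core letters of the REV-ERB element at 12 bases.

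The arrays with skeletal muscle signal were compared with the others of their groups. HNK 3 within HNK and MUP 2 within MUP were the highest arrays for Dbp, Usp2 and Bhlhe41 and the lowest for Nfil3. The step was large for Usp2, with 9.91 in MUP 2 against 7.53 and 8.41 in MUP 1 and MUP 3, and for Bhlhe41, with 7.08 against 5.02 and 5.19. In HNK the same genes had 8.33 in HNK 3 against 6.87 and 7.76, and 6.22 against 5.71 and 5.94. Without both arrays, Dbp had a log2 fold change of 4.31 in HNK against WT and Ciart 2.99, both called (adjusted p = 0.026 and 0.043 from limma), and the 4 genes that rose in MUP against WT were called as before. For HNK against MUP, Ciart then had -1.13 (unadjusted p = 0.13) and Nfil3 -0.95 (unadjusted p = 0.018), and 0 members were called. The part of muscle RNA in the levels of single genes was not tested.

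**Figure D5:**
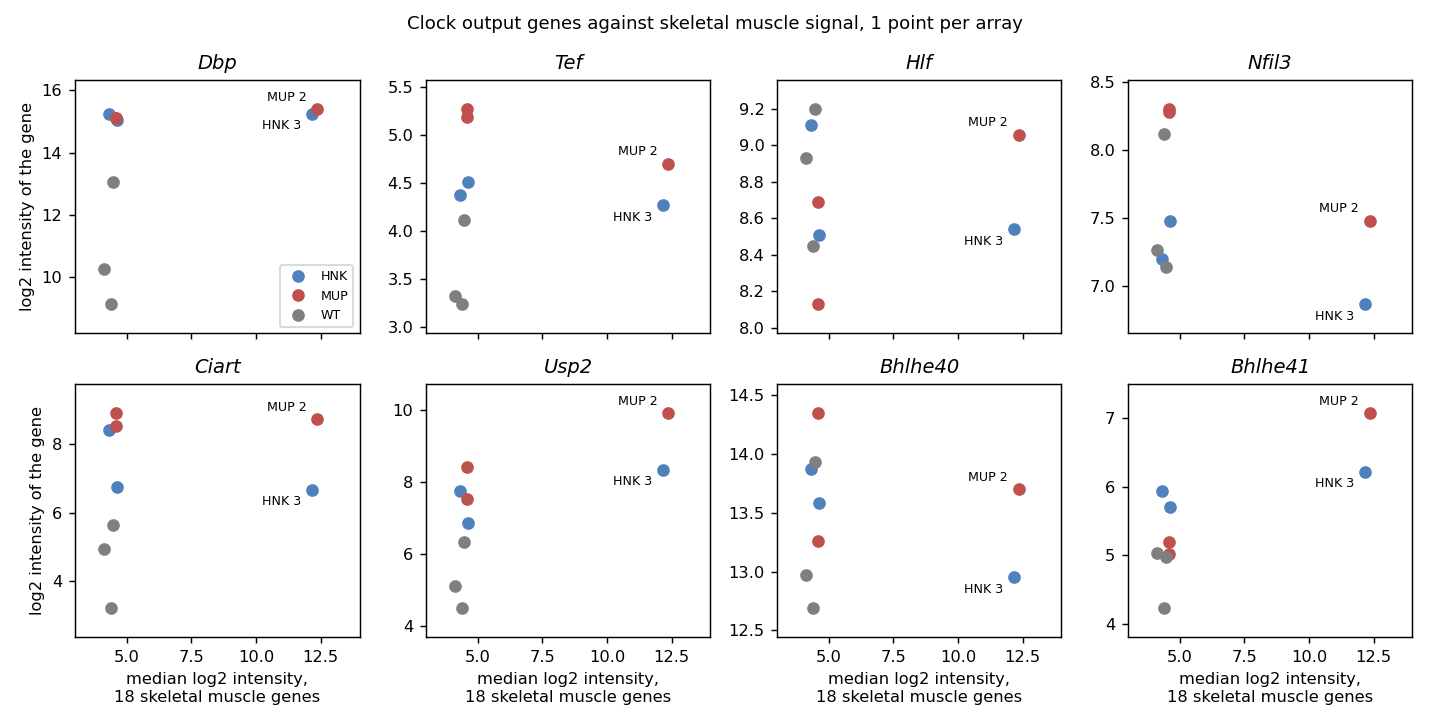
Log2 intensity of each of the 8 genes (vertical) against the median log2 intensity of 18 skeletal muscle genes (horizontal), 1 point per array, coloured by group. HNK 3 and MUP 2 lie at 12.15 and 12.36 on the horizontal axis and the other 7 arrays between 4.12 and 4.62, and Usp2 and Bhlhe41 are highest on MUP 2.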

How the data were processed

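RNA of 9 liver samples was hybridised to Affymetrix Clariom S mouse arrays. The authors deposited a normalized intensity per probe set, not in log units, and log2 was taken here. RMA and Affymetrix Expression Console are the tools in the submitters' processing notes. Of 28846 rows, 6640 were controls and 22206 probe sets were tested, 19572 of them with 1 gene symbol. Comparisons came from 1 limma 3.58.1 model of all 9 arrays (R 4.3.3, eBayes with a variance trend) with Benjamini-Hochberg adjustment, two-sided, and a call at an adjusted p under 0.05. The deposit's design text speaks of 6 arrayed mice, 3 of them treated, while 9 samples in 3 groups are labelled, and the labels were followed. The legend of the paper's array figure gives n = 3 per group for MUP and WT mouse livers and does not name HNK. The labels do not call the arrays of a group separate animals, so p-values measure the spread between these samples, which may be technical. With 3 arrays per group the precision is limited. A bound was computed against the negative control median where at least 2 arrays of the dimmer group did not exceed it. The rule for named genes took all 8 members, called genes of the clock and target lists, and the 3 genes most like each risen member. The members and lists were chosen with earlier results of these data known. The fit was tested on simulated data. Promoters are from RefSeq. Alternatives were other normalizations, filters, weights, a floor, a replicate block, the methods' t-test and the omission of arrays.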

Additional observations from a re-analysis of the deposited data

How the results depend on the processing

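The differences of the 8 genes were refitted under 10 alternatives and without each of the 9 arrays. Over genes and comparisons, direction and side of the threshold were kept in 224 of 237 fits under the alternatives and in 195 of 216 without an array. Most of these differences were uncalled in the main fit, so the counts say little about how firm the calls were. Called differences lost their call in 8 fits under the alternatives and in 11 without an array. The methods' t-test called 0 members and 0 probe sets in MUP against WT and in HNK against WT (0 genes of each list). By that test 4 members had an unadjusted p under 0.05 in MUP against WT, against 14.6 percent of all probe sets. It gave 5 members such a p in HNK against WT, against 12.6 percent. Under it the log2 fold changes of Dbp (4.37 in MUP and 4.35 in HNK against WT), Tef (1.49), Ciart (4.13 and 2.69) and Usp2 (3.29) stood but their adjusted p lay between 0.16 and 0.38. The floor at the negative controls took Tef to 0.18. Fitted on the arrays of both groups alone, Ciart in HNK against WT (2.69) lost its call (adjusted p = 0.065), and Usp2 (2.33) gained one, as it did with the replicate number as a block (2.33, adjusted p = 0.010) and with array weights (2.25). Dbp in HNK against MUP, uncalled, had the other sign with cyclic loess (0.0019) and without HNK 3 and MUP 2 (0.04). Without those arrays 1 activator gene was called in HNK against WT. In HNK against MUP the 1 probe set called became 0 with both groups alone, without HNK 3 and MUP 2, and with the floor. The replicate block raised the period and REV-ERB genes called to 4, both in MUP against WT and in HNK against WT. Deviations from the group means had r from -0.29 to 0.40 between same-numbered arrays of different groups. Between arrays of other numbers r ran from -0.46 to 0.54. With means of only 3 arrays, these values cannot decide whether the numbers are a pairing. The block ended no call of a member. Tef has no value without the dimmest 40 percent of probe sets, which it belongs to.

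Leaving out 1 array at a time gave these ranges. Members called ran from 2 to 4 in MUP against WT and from 0 to 4 in HNK against WT, and probe sets called from 265 to 918, from 0 to 2 in HNK against MUP, and from 114 to 565 in HNK against WT. In MUP against WT the log2 fold changes were 3.53 to 5.50 for Dbp, 3.44 to 4.66 for Ciart, 2.65 to 3.84 for Usp2, 1.33 to 1.77 for Tef and -0.45 to 0.02 for Hlf. In HNK against MUP they were -0.08 to 0.07 for Dbp, -0.16 to 0.31 for Hlf and -0.17 to 0.85 for Bhlhe41. In HNK against WT they were 3.51 to 5.47 for Dbp, 2.0 to 3.22 for Ciart, 1.93 to 2.84 for Usp2, -0.34 to 0.03 for Hlf and 0.95 to 1.36 for Bhlhe41. The genes called were 1 to 2 of the activator arm in both comparisons with WT. Of the period arm they were 2 to 3 in MUP against WT and 1 to 2 in HNK against WT. Of the PAR bZIP targets they were 4 to 7 in HNK against WT. The cause of these shifts was not tested beyond the fewer arrays.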
